A study of Mus musculus with 4 samples.

Results

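The genes described here are 37 heat shock and chaperone genes of the mouse, out of 31053 genes measured, followed across cell classes, genotype label and stage in livers on the way to early hepatocellular carcinoma (eHCC). They were chosen by symbol and divided by the compartment and the known inducibility of their products. The 12 cytosolic inducible genes are Hspa1a, Hspa1b, Hspb1, Hsph1, Hsp90aa1, Dnaja1, Dnajb1, Dnajb4, Bag3, Chordc1, Stip1 and Ahsa1. The 8 cytosolic constitutive genes are Hspa4, Hspa4l, Hspa8, Hspa14, Hsp90ab1, Dnaja2, Dnajb6 and Bag1, and the 3 mitochondrial genes are Hspa9, Hspd1 and Hspe1. The 11 genes of the endoplasmic reticulum (ER) are Hspa5, Hspa13, Hsp90b1, Dnajb9, Dnajb11, Dnajc3, Pdia3, Pdia4, Pdia6, Calr and Canx. The heat shock factors Hsf1 and Hsf2 make up the 2 regulators. Hspb11 carries a heat shock protein name, but its product is a part of the intraflagellar transport machinery of cilia.

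The study set Mef2d KO against WT mice, Mef2d encoding a MADS-box transcription factor. There were 4 single-cell libraries, 1 per group: Mef2d KO eHCC tissue, Mef2d WT eHCC tissue, Mef2d KO premalignant liver and Mef2d WT premalignant liver. All tissues were minced and digested with the same enzyme kit, and 5′ ends of polyadenylated RNA were counted as unique molecular identifiers (UMIs) on the 10x platform. The sources used here do not give how the allele was made, which cells carry it, how tumours arose, the age of the mice or the number of mice per library. With 1 library per group no difference has a replicate check, so no test was made, and every interval below covers counting error only.

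The libraries held 8382 kept cells in KO eHCC, 10049 in WT eHCC, 8796 in KO premalignant and 12810 in WT premalignant liver, with medians of 4305.5 to 8599 UMIs per cell. Between 27 and 46 barcodes were shared by any pair of libraries. Mef2d itself had 96.4 CPM (UMIs of the gene per 1000000 UMIs of the library) in the library labelled KO eHCC, 61.4 in WT eHCC, 101 in the library labelled KO premalignant and 71.2 in WT premalignant, so its RNA was not lower under the KO label at either stage. The 5′ tags may lie outside the altered part of the gene, and the labels do not say which part that is, so this value checks neither label. Cells were grouped into classes by expression without using the chaperone genes, and each class is named after its fixed markers, as T-like, NK/ILC1-like, B-like, phagocyte-like (monocytes and macrophages), cDC-like (1 cluster led by markers of mature dendritic cells), pDC-like and LSEC-like (liver sinusoidal endothelial cells). In the eHCC libraries different clusters made up most of a class. The KO library's B-like cells lay to 97.5% in cluster 37, against 94.1% in cluster 0 for the WT library, its T-like cells mostly in clusters 17 and 31, against clusters 19, 18 and 5, and its phagocyte-like cells mostly in cluster 23, against clusters 35 and 24. The NK/ILC1-like and cDC-like cells of both eHCC libraries each came from 1 cluster. LSEC-like cells numbered 9 and 56 in the KO and WT eHCC libraries, so that class was compared in premalignant liver alone.

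Chaperones bind unfolded stretches of other proteins and let them fold, refold or be passed to degradation. In the cytosol, damaged proteins free the factor HSF1, which binds inverted repeats of the bases GAA (the heat shock element) and switches on inducible HSP70 (Hspa1a, Hspa1b), its J-protein partners (Dnaja1, Dnajb1, Dnajb4), its nucleotide exchange factors (Hsph1, Bag3), the small heat shock protein Hspb1 and the HSP90 machine (Hsp90aa1 with the co-chaperones Stip1, Ahsa1 and Chordc1). In the ER, unfolded proteins draw BiP (Hspa5) away from the sensors IRE1, PERK and ATF6, and ATF6 acts through the ER stress element to raise BiP, GRP94 (Hsp90b1), calreticulin (Calr) and their partners. Heat shock genes are also known to be induced when tissues are taken apart into single cells.

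The upstream sequences of the chaperones differ by compartment, and the stretches that carry the matches are shown because the later results are given by compartment. RefSeq (GRCm38.p6) gave the 250 bases before the start of 31 of the 37 genes, and both strands were searched. The ER stress element, CCAAT followed by CCACG with 9 bases of any kind between them, was found before 6 of 10 ER genes (Hspa5, Hsp90b1, Dnajc3, Pdia6, Calr and Canx) and before none of the other chaperone genes with a sequence. Over all genes it was found before 35 of 27025, or 0.13%. In the lines below, which run 5′ to 3′ on the gene's strand, capitals mark the match, and in Calr the match lies on the opposite strand.
Hspa5, chr2:34772019-34772048, plus strand: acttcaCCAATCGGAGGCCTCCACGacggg
Hsp90b1, chr10:86705608-86705687, minus strand: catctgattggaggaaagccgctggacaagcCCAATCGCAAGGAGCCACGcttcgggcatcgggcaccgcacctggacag
Calr, chr8:84847045-84847124, minus strand: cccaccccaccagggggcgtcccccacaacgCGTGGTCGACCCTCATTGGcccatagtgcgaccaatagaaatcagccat
Canx, chr11:50325770-50325849, minus strand: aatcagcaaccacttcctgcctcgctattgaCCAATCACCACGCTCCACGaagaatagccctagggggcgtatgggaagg

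The heat shock element was searched as GAANNTTC or TTCNNGAA, a pair of facing units, and as the same pair followed at the same spacing by a further unit that faces it, the 3-unit form, which contains the shorter one. The shorter form was found before 6 of 11 inducible genes (Hspa1a, Hspa1b, Hspb1, Hsph1, Dnaja1 and Dnajb4), before 1 of 6 constitutive genes (Dnajb6), before both mitochondrial genes searched (Hspd1 and Hspe1) and before 0 of 10 ER genes. It is common, lying before 3932 genes or 14.55% of all. The 3-unit form lay before 139 genes or 0.51% of all, among them Dnajb6, Hspd1 and Hspe1. Shown here are the HSP70 pair and Hsph1, on which the genotype results turn, Hspb1, which behaved differently from them, Dnajb6, a constitutive gene that was higher in KO eHCC cells, and the stretch shared by Hspd1 and Hspe1.
Hspa1a, chr17:34972217-34972296, and Hspa1b, chr17:34959299-34959378, minus strand: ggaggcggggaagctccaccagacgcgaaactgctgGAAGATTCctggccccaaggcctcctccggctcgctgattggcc
Hsph1, chr5:149636351-149636380, minus strand: gggtagaatctTTCTCGAAggctcgagaag
Hspb1, chr5:135887776-135887855, plus strand: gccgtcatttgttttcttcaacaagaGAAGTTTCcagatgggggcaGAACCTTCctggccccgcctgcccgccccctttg
Dnajb6, chr5:29735843-29735872, plus strand: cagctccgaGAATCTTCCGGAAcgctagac
Hspd1, chr1:55088053-55088082, minus strand: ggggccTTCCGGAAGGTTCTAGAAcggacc

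Capitals again mark the matches. Hspa1a and Hspa1b share the printed stretch base for base, and 247 of the 250 bases before their starts are identical. Hspd1 and Hspe1, the mitochondrial HSP60 and its lid HSP10, are transcribed away from each other, and the printed stretch lies before the RefSeq start of both. The GENCODE gene models reach further: the stretches of Hspd1, Hspa5, Dnajb6 and Hsph1 lie wholly or in part inside the annotated gene, upstream of the RefSeq start used here. A match states that the letters are there, and not that a factor binds. The likeness of the HSP70 pair extends into their transcripts: 50.9% of the 90-base words of Hspa1a and 52.3% of those of Hspa1b occur in another gene, which is the other copy or, for some, their neighbour Hspa1l. Values of each copy are therefore uncertain one by one, and their sum is given beside them. The assay counts 5′ ends, so the first 500 bases bear most on the counts. There the shared part was 49.6% for both copies, 84.2% for Hspb1 (with a pseudogene), 56.7% for Hspa14, 31.4% for Hsp90aa1 and 23.4% for Dnaja1, whose values are likewise uncertain. It was 6.33% for Hspa8, 4.38% for Hsf2, 3.65% for Hspd1 and 3.16% for Hspe1, and 0 for Dnajb6, Hsph1, Dnajb1, Hspa5, Hsp90b1 and Calr.

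Each compartment had its own distribution over cell classes, taken here in WT premalignant liver, the library with the most classes. Levels are CPM, the UMIs of a gene or group per 1000000 UMIs of all cells of the class. Summed inducible chaperones were highest in NK/ILC1-like cells (4152 CPM), then T-like (3868 CPM) and pDC-like cells (3456 CPM). Vascular endothelium-like (2959 CPM), phagocyte-like (2876 CPM), B-like (2859 CPM) and cDC-like cells (2800 CPM) followed with overlapping counting intervals between neighbours. LSEC-like cells (2732 CPM) and Kupffer-like cells (2700 CPM), the macrophages that reside in the sinusoid, came next and also overlapped. A cluster with a median of only 1249.5 UMIs per cell and mostly hepatocyte RNA, left unnamed, was lowest at 1636 CPM.

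ER chaperones had a different order. They were highest in LSEC-like cells (5287 CPM), Kupffer-like cells (4725 CPM) and vascular endothelium-like cells (4294 CPM), then in pDC-like cells (3851 CPM). The phagocyte-like (2873 CPM), NK/ILC1-like (2863 CPM) and cDC-like cells (2855 CPM) overlapped, and T-like (1939 CPM) and B-like cells (1628 CPM) were lower. GRP94 (Hsp90b1), the ER member of the HSP90 family, had 1390 CPM in LSEC-like, 1233 in Kupffer-like and 1174 in pDC-like cells of that library, against 390 CPM in T-like cells. The mitochondrial group was highest in the hepatocyte RNA cluster, at 2458 CPM, against 420 to 987 CPM in the named classes of that library. Neutrophil-like cells, present in number in WT eHCC alone, had the lowest values of all WT eHCC classes in each of the 3 groups: 1207 CPM of inducible, 1072 CPM of ER and 159 CPM of mitochondrial chaperones. Hspb1, the small heat shock protein HSP25, was highest in the endothelial classes. It had 322 CPM in vascular endothelium-like and 170 CPM in LSEC-like cells of WT premalignant liver, against 7.19 CPM in T-like cells and 8.57 CPM in B-like cells.

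In premalignant liver some inducible chaperones, chiefly Hsph1, Dnajb1 and the HSP70 pair, were higher in KO than in WT lymphocyte-like, phagocyte-like and dendritic-like cells. Dnaja1, Chordc1, Stip1 and Ahsa1 passed 1.5-fold in 0 of 7 named classes, and no inducible member did in LSEC-like cells. The medians of the ER group stayed near 0, and the members of the constitutive group other than Hspa4l stayed within 1.5-fold in the 7 named classes compared. A member was counted when its CPM ratio passed 1.5-fold (0.585 on the log2 scale) in a class with 100 or more cells in both libraries and when it had at least 50 UMIs in the pair. In B-like cells 9 of 36 members were higher past that line and 0 lower, where 13.4% of all genes were higher and 4.78% lower. In T-like cells 4 of 37 were higher and 1 lower, against 11.8% and 3.59% of all genes, and in NK/ILC1-like cells 4 of 34 were higher and 0 lower, against 10.8% and 5.31%. In phagocyte-like cells 6 of 36 were higher and 1 lower, against 5.44% and 7.77%. In cDC-like cells 6 of 34 were higher and 1 lower, against 9.2% and 4.93%, and in pDC-like cells 6 of 33 were higher and 0 lower, against 8.58% and 4.47%. In LSEC-like cells 1 of 37 was higher and 0 lower, against 3.14% and 3.56%. The share of members past the line was thus near the background in T-like, NK/ILC1-like and LSEC-like cells and above it in the other 4 classes. Single clusters were compared after the data were seen. In phagocyte-like cluster 23 alone, 2 of 35 were higher and 1 lower, against 4.99% and 6.33% of all genes, so the share there was near the background. In B-like cluster 0 alone, 10 of 36 were higher and 0 lower, against 13.2% and 4.42%.

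Hsph1 encodes HSP105, an HSP110 protein that helps HSP70 exchange its nucleotide and holds unfolded proteins itself. It was higher in KO cells in 7 of 7 named classes and past 1.5-fold in 6. In B-like cells it had 262 CPM (95% interval 249 to 274) in KO and 93.2 CPM (87.4 to 99.4) in WT premalignant liver, a log2 ratio of 1.49 (1.37 to 1.60). The T-like cells had 298 CPM in KO and 146 CPM in WT, a log2 ratio of 1.03 (0.94 to 1.12). It had 135 CPM in KO and 66.1 CPM in WT cDC-like cells, and 184 CPM in KO and 115 CPM in WT pDC-like cells. The KO value was the higher one in each of these pairs, and in LSEC-like cells, with 77.1 CPM in KO and 60.8 CPM in WT, it stayed within 1.5-fold. The difference was also there within single clusters, a comparison added after the data were seen: the log2 ratio of Hsph1 was 1.49 in B-like cluster 0 and lay between 0.76 and 1.17 in T-like clusters 2, 3, 5, 18 and 19.

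The HSP70 pair, which refolds damaged proteins after stress, showed the same direction in 6 of 7 classes. In B-like cells Hspa1a and Hspa1b together had 1924 CPM (1891 to 1958) in KO and 939 CPM (921 to 958) in WT, a log2 ratio of 1.03 (1.00 to 1.07). The sum was 2383 CPM in KO and 1391 CPM in WT phagocyte-like cells, 2048 and 1241 CPM in KO and WT cDC-like cells, and 1690 and 854 CPM in KO and WT pDC-like cells. T-like cells had 1774 CPM in KO and 1298 CPM in WT, within 1.5-fold. LSEC-like cells went the other way, with 942 CPM in KO and 1129 CPM in WT. Read apart, Hspa1a and Hspa1b each passed the line in 4 of 7 classes, the B-like, phagocyte-like, cDC-like and pDC-like ones. The dendritic calls were the weaker ones: in cDC-like cells Hspa1b had a log2 ratio of 0.73, which was 0.23 with cells thinned to 1000 UMIs and 0.46 with doublets kept, and Hspa1a had 0.50 with doublets kept, against 0.72. With doublets kept, the cDC-like class was a wider set. It included a cluster led by Ccl8 and Mmp12, which otherwise led phagocyte-like cluster 21. Its values in that setting therefore do not show the part of doublets alone. In pDC-like cells doublets kept gave 0.48 for Hspa1a and 0.52 for Hspa1b, against 1.05 and 0.93.

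Dnajb1, the HSP40 that hands unfolded proteins to inducible HSP70, was higher in KO cells in 7 of 7 classes and past 1.5-fold in 5. It had 321 CPM in KO and 161 CPM in WT B-like cells (log2 ratio 0.99, 0.90 to 1.09), and 161 CPM in KO and 75 CPM in WT cDC-like cells (1.10, 0.75 to 1.45). With thinned cells its calls in NK/ILC1-like (0.50) and pDC-like cells (0.33) were lost. Hspa4l, an HSP110 relative placed with the constitutive members, was higher in 7 of 7 classes and past the line in 6, though in cDC-like cells its counting interval reached below 0. Its levels were low: 36.2 CPM in KO and 16.4 CPM in WT B-like cells (1.15, 0.86 to 1.44), and 32.7 CPM in KO and 19.9 CPM in WT T-like cells (0.72, 0.46 to 0.99). Bag3, which couples HSP70 to autophagy, had 21.6 CPM in KO and 11.0 CPM in WT T-like cells (0.98, 0.63 to 1.33). Dnajb4, another J protein of HSP70, passed the line in T-like (0.61, or 0.20 with thinned cells) and B-like cells (0.70). Hsp90aa1, the inducible HSP90, did so in B-like cells, with 1231 CPM in KO and 794 CPM in WT (0.63, 0.59 to 0.68).

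**Figure D1:**
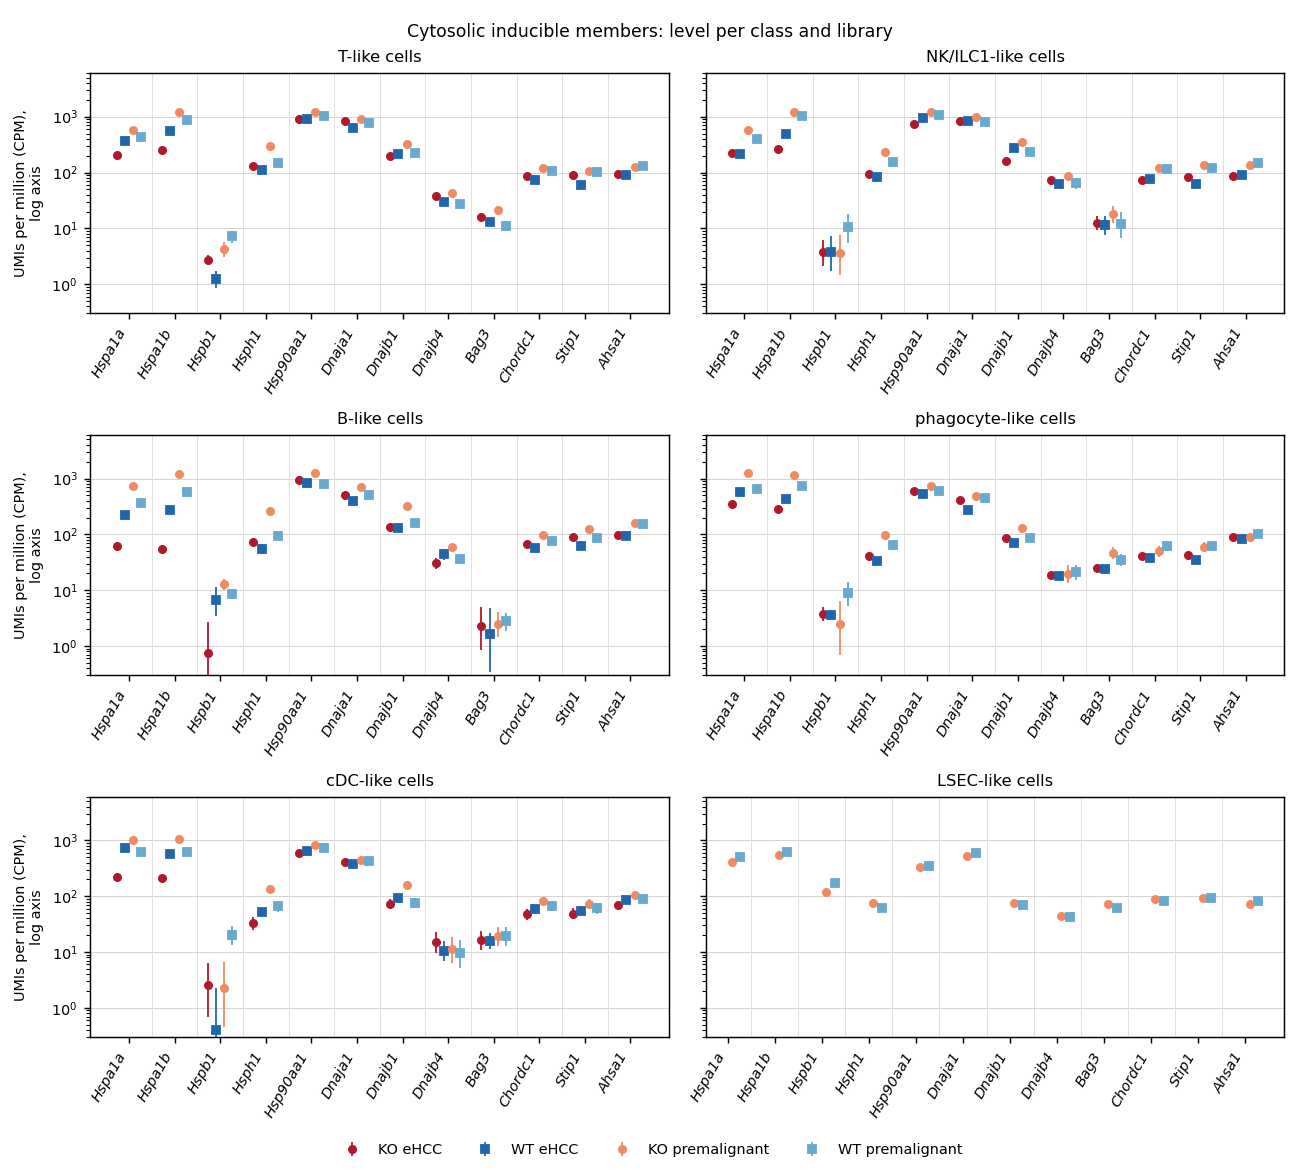
Levels of the 12 cytosolic inducible chaperones (CPM, logarithmic axis) in 6 cell classes, with 1 point per library and bars for the 95% Poisson interval of counting error. In B-like cells Hsph1 lies at 262 CPM in KO premalignant and 93.2 CPM in WT premalignant liver, and Hspa1b in KO eHCC (53.9 CPM) lies below the other 3 libraries.

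As a group, the inducible members had a median log2 ratio of 0.63 in B-like cells, where 11 of 11 lay above 0 and the median of all genes was 0.11. In T-like cells the median was 0.32 with 10 of 12 above 0, against 0.11 over all genes, and in phagocyte-like cells 0.32 with 7 of 11 above 0, against 0.00. The NK/ILC1-like (0.26), cDC-like (0.27) and pDC-like cells (0.19) lay lower, against 0.05, 0.05 and 0.04 over all genes. In LSEC-like cells it was -0.04, with 6 of 12 above 0 and 0.03 over all genes. The 8 constitutive members, among them Hspa8, the housekeeping HSP70, and Hsp90ab1, the housekeeping HSP90, had medians between -0.11 and 0.04 in these classes. Hspa8 itself had 2125 CPM in KO and 2139 CPM in WT T-like cells.

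The factors that regulate these genes were at low levels. Hsf2, which can pair with HSF1, was the one member past the line in LSEC-like cells, with 19.9 CPM in KO and 12.6 CPM in WT (0.66, 0.45 to 0.87), and it also passed in B-like cells, with 10.6 CPM in KO and 5.91 CPM in WT (0.84, 0.32 to 1.36). These were 0.52 with thinned LSEC-like cells and 0.47 with doublets kept in B-like cells. Hsf1 passed in pDC-like cells alone, with 32.4 CPM in KO and 18.4 CPM in WT (0.82, 0.07 to 1.60), and not with doublets kept (0.22). Among the members lower in KO cells, Hspb11 had 19.6 CPM in KO and 37.8 CPM in WT phagocyte-like cells (-0.95, -1.60 to -0.33) and lay below 0 in 6 of 6 classes with enough UMIs. Hspb1 had 4.20 CPM in KO and 7.19 CPM in WT T-like cells, from 42 and 68 UMIs.

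Most ER members differed less. Their median log2 ratio lay between -0.15 and 0.16 in the 7 named classes. Pdia3, Pdia4 and Pdia6, disulfide isomerases that form and reshuffle disulfide bonds, and Dnajb11, a J protein of BiP, were lower in KO in 7 of 7 classes. Of these, Pdia6 alone passed 1.5-fold and did so in cDC-like cells, with 173 CPM in KO and 279 CPM in WT (-0.70, -0.94 to -0.45). Dnajb9, a J protein of BiP that also restrains IRE1, passed upward in B-like cells, with 82.2 CPM in KO and 51.1 CPM in WT (0.69, 0.51 to 0.86), and in phagocyte-like cells, with 96.8 CPM in KO and 62.2 CPM in WT (0.64, 0.29 to 0.99). BiP (Hspa5) was higher in KO in 6 of 7 classes and past the line in none: T-like cells had 494 CPM in KO and 405 CPM in WT. In the hepatocyte RNA cluster, where 2 of 35 members were higher and 8 lower against 14.3% and 9.07% of all genes, the ER median was -0.55, and Pdia6 had 21.5 CPM in KO and 62.1 CPM in WT.

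Genes outside the 37 give the setting. Of the other cytosolic chaperones and co-chaperones listed, such as the CCT chaperonin subunits, 2 of 31 were higher and 0 lower in B-like cells, 0 of 31 passed in T-like cells and 0 of 33 were higher and 2 lower in LSEC-like cells. Dedd2 was on that list but encodes a death-effector-domain protein and not a chaperone. It was among the higher ones in B-like (log2 ratio 1.13), phagocyte-like (1.00), cDC-like (0.97) and pDC-like cells (0.91). Of the other unfolded protein response and ER folding genes, 7 of 27 were higher and 1 lower in B-like cells, 4 of 28 were higher and 1 lower in T-like cells, and 0 of 32 passed in LSEC-like cells. Eif2ak3, the gene of the sensor PERK, was among them with a log2 ratio of 0.92 in B-like and 0.72 in T-like cells. Of 8 other mitochondrial chaperones and proteases, 0 passed in T-like, B-like, LSEC-like and phagocyte-like cells.

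Immediate-early genes are switched on within minutes of many stimuli and of tissue digestion. They moved in the direction of the inducible chaperones in B-like, T-like and phagocyte-like cells. In LSEC-like cells they lay below 0, while the inducible median stayed near 0. Their median log2 ratio was 0.39 in B-like cells with 17 of 18 above 0, 0.32 in T-like cells with 14 of 18 above 0, 0.49 in phagocyte-like cells with 16 of 18 above 0, and -0.55 in LSEC-like cells with 4 of 17 above 0. Their summed level over classes of 100 or more cells ranged between 1577 and 18633 CPM in KO and between 1340 and 13692 CPM in WT premalignant liver. Free RNA of other cells was lower in KO: hepatocyte RNA summed to 453 CPM in KO and 966 CPM in WT B-like cells, and haemoglobin with Alas2 RNA to 544 CPM in KO and 3839 CPM in WT. Depth was close in B-like and T-like cells, with medians of 3793.5 UMIs per cell in KO and 3465 in WT B-like cells, and 4490 in KO and 4724 in WT T-like cells. LSEC-like cells had a wider gap, with 5006 in KO and 6595.5 in WT. The part of digestion or of the library in the chaperone difference was not tested, and all classes of a genotype label come from 1 library.

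**Figure D2:**
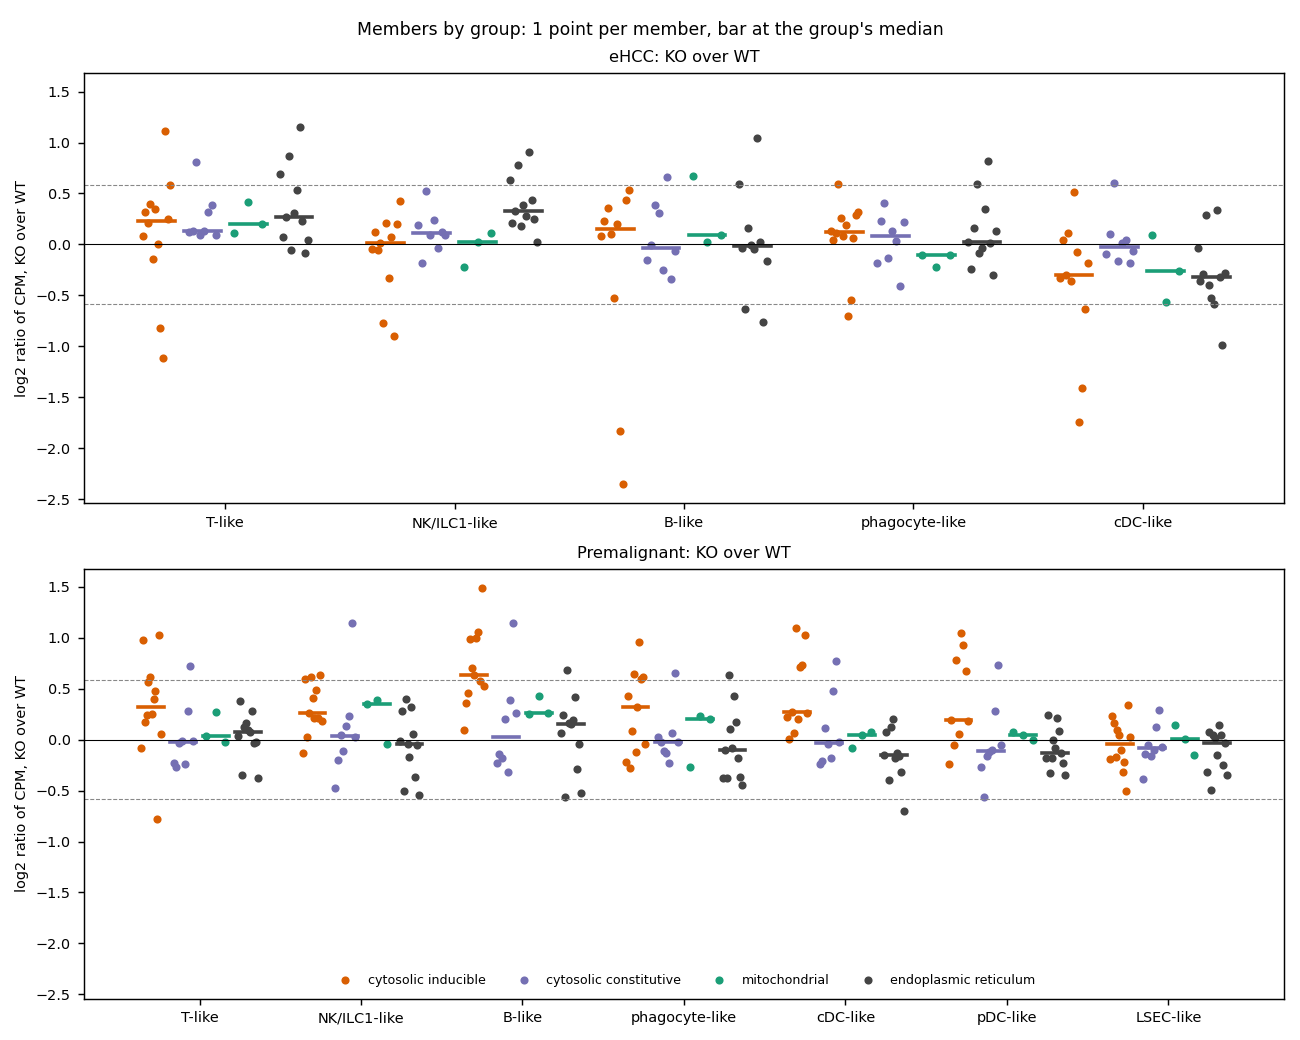
Log2 CPM ratios of KO over WT cells for each chaperone gene, by compartment group and cell class, for eHCC (upper panels) and premalignant liver (lower panels); bars are group medians and dashed lines mark 1.5-fold. In premalignant liver the inducible median lies at 0.63 in B-like cells and at -0.04 in LSEC-like cells.

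In eHCC tissue the genotype labels differed in another way. BiP and a few of its ER partners were higher in KO cells, while the HSP70 pair was lower. In T-like cells 6 of 37 members were higher and 2 lower past 1.5-fold, against 8.55% higher and 18.1% lower among all genes. In NK/ILC1-like cells 3 of 36 were higher and 3 lower, against 8.36% and 16.1%, and in B-like cells 4 of 33 were higher and 4 lower, against 6.66% and 13.1%. In phagocyte-like cells 3 of 37 were higher and 1 lower, against 12.7% and 21.5%. In cDC-like cells 1 of 35 was higher and 5 lower, against 7.75% and 11%. These shares lay near or below those of all genes, except that the higher members in T-like and B-like cells and, by less, the lower ones in cDC-like cells lay above, so what follows rests on named genes and not on the group as a whole.

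Hspa5 encodes BiP, the HSP70 of the ER and the keeper of its stress sensors. It was higher in KO eHCC cells in 5 of 5 classes and past the line in 4. It had 650 CPM in KO and 292 CPM in WT T-like cells, a log2 ratio of 1.15 (1.12 to 1.19), and 611 CPM in KO and 295 CPM in WT B-like cells, a log2 ratio of 1.05 (0.91 to 1.19). NK/ILC1-like cells had 695 CPM in KO and 370 CPM in WT (0.91, 0.80 to 1.02), and phagocyte-like cells had 840 CPM in KO and 475 CPM in WT (0.82, 0.79 to 0.85). The KO library was thus the higher one in each, and the cDC-like pair, with 584 CPM in KO and 462 CPM in WT, stayed within 1.5-fold. When libraries were clustered separately, the phagocyte-like ratio of Hspa5 was 0.44. The 24086 UMIs of Hspa5 in KO T-like cells came from 4539 cells, the top cell holding 0.216% of them. Within clusters that both eHCC libraries filled, an addition made after the data were seen, the log2 ratio of Hspa5 was 0.94 and 1.11 in T-like clusters 4 and 5 and 0.81 and 0.65 in phagocyte-like clusters 21 and 23. No B-like cluster held 100 cells of both.

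Dnajb9 and Calr moved with Hspa5 in part. Dnajb9 had 95.5 CPM in KO and 52.2 CPM in WT T-like cells (0.87, 0.78 to 0.96), 95.6 CPM in KO and 55.8 CPM in WT NK/ILC1-like cells (0.78, 0.49 to 1.07) and 83.3 CPM in KO and 55.2 CPM in WT phagocyte-like cells (0.59, 0.49 to 0.69). Calr, the calcium-binding lectin chaperone of glycoproteins, had 403 CPM in KO and 249 CPM in WT T-like cells (0.69, 0.65 to 0.73), 453 CPM in KO and 293 CPM in WT NK/ILC1-like cells (0.63, 0.50 to 0.76) and 433 CPM in KO and 287 CPM in WT B-like cells (0.60, 0.45 to 0.75). No other ER member passed the line upward in these classes, though in NK/ILC1-like cells 11 of 11 ER members lay above 0. Canx, the membrane-bound relative of calreticulin, had 99.2 CPM in KO and 94.0 CPM in WT T-like cells. Pdia4 was lower in KO B-like cells, with 45.6 CPM against 77.3 CPM in WT (-0.76, -1.13 to -0.40), and in KO cDC-like cells, with 22.1 CPM against 43.8 CPM in WT (-0.99, -1.58 to -0.42; -0.13 with doublets kept). With doublets kept, the cDC-like class included a cluster of 638 KO and 548 WT eHCC cells. It otherwise had 207 and 172 cells, so the value of -0.13 covers a wider set of cells. Dnajb11 had 49.0 CPM in KO and 76.2 CPM in WT B-like cells (-0.64, -0.99 to -0.28), or -0.31 with thinned cells. The ER medians were 0.27 in T-like, 0.33 in NK/ILC1-like, -0.02 in B-like, 0.03 in phagocyte-like and -0.32 in cDC-like cells, beside -0.10, -0.10, -0.06, -0.08 and -0.04 over all genes. Of the 6 genes with the ER stress element before their start, Hspa5 passed the line in 4 of these classes and Calr in 3, while Hsp90b1, Canx, Dnajc3 and Pdia6 passed in 0.

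**Figure D3:**
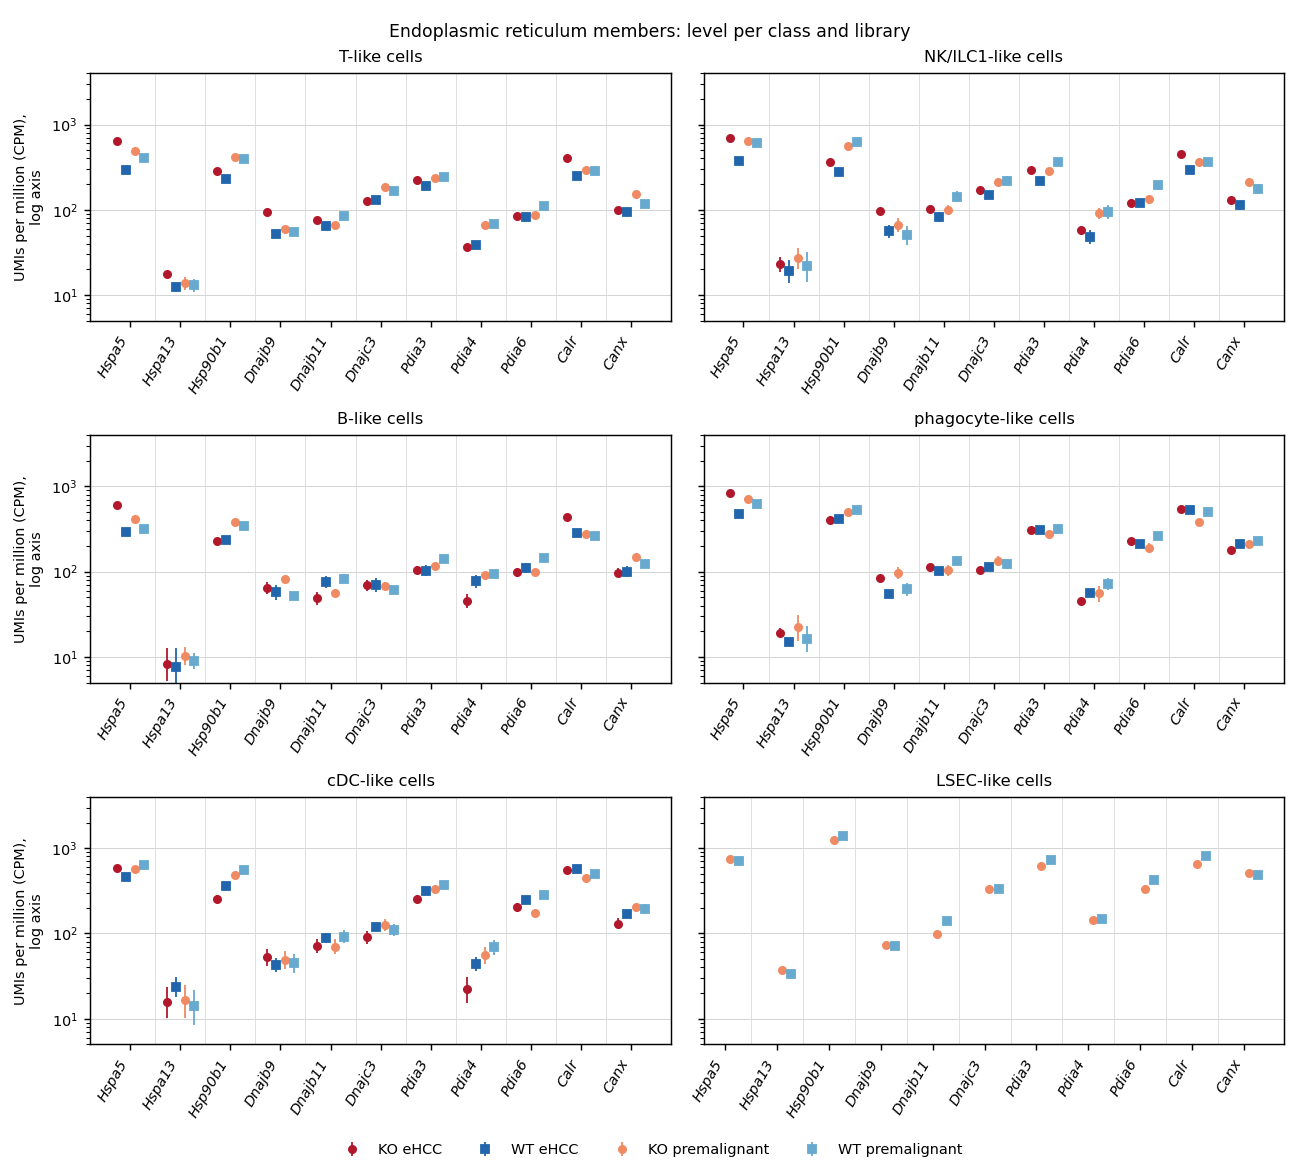
Levels of the 11 ER chaperones (CPM, logarithmic axis) in 6 cell classes, with 1 point per library and bars for the 95% Poisson interval. Hspa5 in T-like cells lies at 650 CPM in KO eHCC, 292 in WT eHCC, 494 in KO premalignant and 405 in WT premalignant liver.

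The HSP70 pair was lower in KO eHCC cells in each class. Hspa1a and Hspa1b together had 116 CPM (103 to 130) in KO and 496 CPM (464 to 529) in WT B-like cells, a log2 ratio of -2.10. The sum was 457 CPM in KO and 907 CPM in WT T-like cells (-0.99), 435 CPM in KO and 1308 CPM in WT cDC-like cells (-1.59), and 645 CPM in KO and 1002 CPM in WT phagocyte-like cells (-0.64). NK/ILC1-like cells had 487 CPM in KO and 701 CPM in WT, within 1.5-fold for the sum. The KO library was the lower one each time, though the copies differed in NK/ILC1-like cells, where Hspa1b had 262 CPM in KO and 488 CPM in WT and Hspa1a had 224 CPM in KO and 213 CPM in WT. In B-like cells of KO eHCC the 142 UMIs of Hspa1b lay in 54 cells, 21.1% of them in 1 cell. Leaving out the top cell of each library moved the log2 ratio to -2.56, beside -2.35 (-2.63 to -2.08) with all cells. The KO eHCC B-like cells lay to 97.5% in cluster 37, where the erythroid marker list scored next after the B list (1.282 beside 3.145). The part of erythroid RNA in the difference was not tested. In T-like clusters 4 and 5 the log2 ratio of Hspa1b was -1.07 and -2.12, and in phagocyte-like clusters 21 and 23 it was -1.30 and -0.87.

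The cDC-like cells had a depth gap, with medians of 3176 UMIs per cell in KO and 15062.5 in WT eHCC. With every cell thinned to 1000 UMIs the log2 ratio there was -2.38 for Hspa1a, against -1.74 unthinned, and -0.62 for Hspa1b, against -1.41 unthinned. Hsph1 had 32.9 CPM in KO and 51.2 CPM in WT cDC-like cells (-0.64, -1.13 to -0.16), or -0.13 with each cell weighted equally. In the other classes Hsph1 stayed within 1.5-fold, for instance with 133 CPM in KO and 112 CPM in WT T-like cells. Dnajb1 was lower in NK/ILC1-like cells alone past the line, with 160 CPM in KO and 274 CPM in WT (-0.77, -0.93 to -0.61).

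Some cytosolic members and the mitochondrial Hspa9 were higher in KO eHCC cells. Dnajb6, a J protein that keeps aggregation-prone chains soluble and carries the 3-unit heat shock element printed above, had 283 CPM in KO and 161 CPM in WT T-like cells (0.81, 0.76 to 0.86) and 223 CPM in KO and 147 CPM in WT cDC-like cells (0.60, 0.39 to 0.82; 0.26 with thinned cells). It lay above 0 in 5 of 5 classes. Stip1, which bridges HSP70 and HSP90, had 90.5 CPM in KO and 60.3 CPM in WT T-like cells (0.59, 0.50 to 0.67). Hspa4, an HSP110 relative, had 135 CPM in KO and 85.0 CPM in WT B-like cells (0.67, 0.39 to 0.95), and Hspa9, the mitochondrial HSP70, had 107 CPM in KO and 67.4 CPM in WT B-like cells (0.67, 0.36 to 0.99). Dnaja1, a J protein of HSP70, had 419 CPM in KO and 278 CPM in WT phagocyte-like cells (0.59, 0.55 to 0.64). In clusters 21 and 23 alone Dnaja1 had a log2 ratio of -0.02, and with thinned cells 0.38. The clusters 24 and 35, with most WT cells of the class, held too few KO cells to compare. Hspb1 had 2.72 CPM (2.22 to 3.31) in KO and 1.26 CPM (0.87 to 1.76) in WT T-like cells, from 101 and 34 UMIs.

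Among the genes outside the 37, Fkbp5, an HSP90 co-chaperone known as a glucocorticoid-induced gene, stood lowest in KO against WT eHCC cells in each class compared among the other cytosolic chaperones listed. T-like cells had 18.4 CPM in KO and 91.6 CPM in WT eHCC, 28.6 CPM in KO and 20.5 CPM in WT premalignant liver. Phagocyte-like cells had 8.64 CPM in KO and 181 CPM in WT eHCC, 9.49 CPM in KO and 8.96 CPM in WT premalignant liver. The WT eHCC library was the high one of the 4 in both classes. Counting Fkbp5, 2 of 33 genes on the list of other cytosolic chaperones and co-chaperones were higher and 2 lower in T-like cells. In B-like cells 3 of 29 were higher and 2 lower, and in phagocyte-like cells 1 of 34 was higher and 2 lower. Of 8 other mitochondrial chaperones and proteases, 0 were higher and 4 lower in NK/ILC1-like cells, with Clpx, a subunit of a matrix protease, at -0.80, and 0 passed in T-like, B-like and phagocyte-like cells. Of the other unfolded protein response and ER folding genes, 6 of 30 were higher and 1 lower in T-like cells (median 0.23), 4 of 28 were higher and 0 lower in NK/ILC1-like cells (0.17), 5 of 31 were higher and 0 lower in phagocyte-like cells (0.30), 1 of 27 was higher and 3 lower in B-like cells (-0.14), and 2 of 28 were higher and 3 lower in cDC-like cells (-0.12). The largest included Ern1, the gene of IRE1, in T-like (1.54) and NK/ILC1-like cells (0.93), Ddit3, the gene of the factor CHOP, in NK/ILC1-like (0.77) and phagocyte-like cells (1.09), and Ero1l, an ER oxidase, in phagocyte-like cells, with 76.1 CPM in KO and 33.2 CPM in WT. Asns, asparagine synthetase, had 11.2 CPM in KO and 3.63 CPM in WT T-like cells.

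Immediate-early genes were lower in KO eHCC cells, with a median log2 ratio of -0.52 in T-like (5 of 18 above 0), -0.95 in NK/ILC1-like (3 of 17), -0.40 in B-like (6 of 16), -0.85 in phagocyte-like (3 of 18) and -0.71 in cDC-like cells (1 of 17). Their summed level over classes ranged between 2284 and 17842 CPM in KO and between 8239 and 23034 CPM in WT eHCC. RNA of other cells differed as well: the summed haemoglobin and Alas2 RNA in T-like cells was 2587 CPM in KO and 278 CPM in WT eHCC, and the summed hepatocyte RNA was 17.4 CPM in KO and 224 CPM in WT. The median mitochondrial share in T-like cells was 3.94% in KO and 5.78% in WT. The part of these library differences in the chaperone values was not tested.

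Against premalignant liver, eHCC cells under the KO label had less of the HSP70 pair and Hsph1 in each of 5 classes. Under the WT label the log2 ratio of Hsph1 and Hspa1b lay below 0 in 6 of 6 classes, past the line in 4 for each, while Hspa1a lay above 0 in 2 of 6 and passed downward in 2. The difference between the labels was not tested. Because these comparisons use the same libraries as the genotype comparisons, the values are set side by side and are no separate evidence. The whole transcriptome also shifted in them: the median log2 ratio of all genes, eHCC over premalignant, was -0.39 in T-like, -0.42 in NK/ILC1-like, -0.50 in B-like, -0.17 in phagocyte-like and -0.15 in cDC-like cells under the KO label, and -0.16, -0.24, -0.22, -0.20 and -0.07 in the same classes under the WT label.

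Under the KO label 2 of 37 members were higher and 7 lower in T-like cells, where 7.95% of all genes were higher and 38.3% lower. In NK/ILC1-like cells 0 of 36 were higher and 14 lower, against 5.48% and 38.4%, and in B-like cells 1 of 36 was higher and 12 lower, against 3.01% and 44.4%. In phagocyte-like cells 1 of 37 was higher and 7 lower, against 11.4% and 23.8%, and in cDC-like cells 0 of 34 were higher and 13 lower, against 9.52% and 23.1%. Under the WT label 0 of 37 were higher and 6 lower in T-like cells, against 7.72% and 14.7%, 0 of 33 and 13 in NK/ILC1-like cells, against 5.53% and 20.7%, and 0 of 36 and 4 in B-like cells, against 3.83% and 20.8%. There, 0 of 37 were higher and 7 lower in phagocyte-like cells, against 12.8% and 24.9%, 1 of 34 was higher and 2 lower in cDC-like cells, against 7.26% and 13.3%, and 0 of 37 were higher and 6 lower in vascular endothelium-like cells, against 13% and 21.9%. The lower members exceeded the background share in NK/ILC1-like cells under the WT label and in cDC-like cells under the KO label, and elsewhere lay near or below it.

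Single genes stood out from that shift. Hspa1a and Hspa1b together had 116 CPM in KO eHCC and 1924 CPM in KO premalignant B-like cells, a log2 ratio of -4.05, beside 496 CPM in WT eHCC and 939 CPM in WT premalignant B-like cells, a log2 ratio of -0.92. In B-like cells the class was made up of other cells under the KO label. These lay to 97.5% in cluster 37 in eHCC and to 99.6% in cluster 0 in premalignant liver. WT B-like cells lay in cluster 0 at both stages (94.1% and 98.5%). KO T-like cells likewise lay mostly in clusters 17 and 31 in eHCC and in clusters 2, 3 and 19 in premalignant liver. WT T-like cells changed in part, from clusters 2, 3 and 19 to clusters 19, 18 and 5. For phagocyte-like cells the WT label changed more. Cluster 23 held 83.55% of them in WT premalignant liver and 5.46% in WT eHCC, against 91.3% and 72.74% under the KO label. The part of these changes of clusters was not tested. In T-like cells the sum was 457 CPM in KO eHCC and 1774 CPM in KO premalignant (-1.96), and 907 CPM in WT eHCC and 1298 CPM in WT premalignant (-0.52). The phagocyte-like cells had ratios of -1.89 under KO and -0.47 under WT, and the cDC-like cells -2.24 under KO and 0.08 under WT. In each of the 5 classes the KO premalignant library was the highest of the 4 and the KO eHCC library the lowest. Hsph1 was lower past the line in eHCC in all 5 classes under the KO label, with log2 ratios of -1.16 in T-like, -1.31 in NK/ILC1-like, -1.84 in B-like, -1.29 in phagocyte-like and -2.04 in cDC-like cells. Under the WT label it passed in NK/ILC1-like (-0.88), B-like (-0.78), phagocyte-like (-0.96) and vascular endothelium-like cells (-1.25), the last with 46.4 CPM in eHCC and 111 CPM in premalignant liver. Those vascular endothelium-like cells lay to 97.9% in cluster 12 in eHCC and to 90.1% in cluster 26 in premalignant liver. The part of this change in the difference was not tested. Dnajb1 passed in 5 of 5 classes under the KO label, at -0.63 to -1.22.

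**Figure D4:**
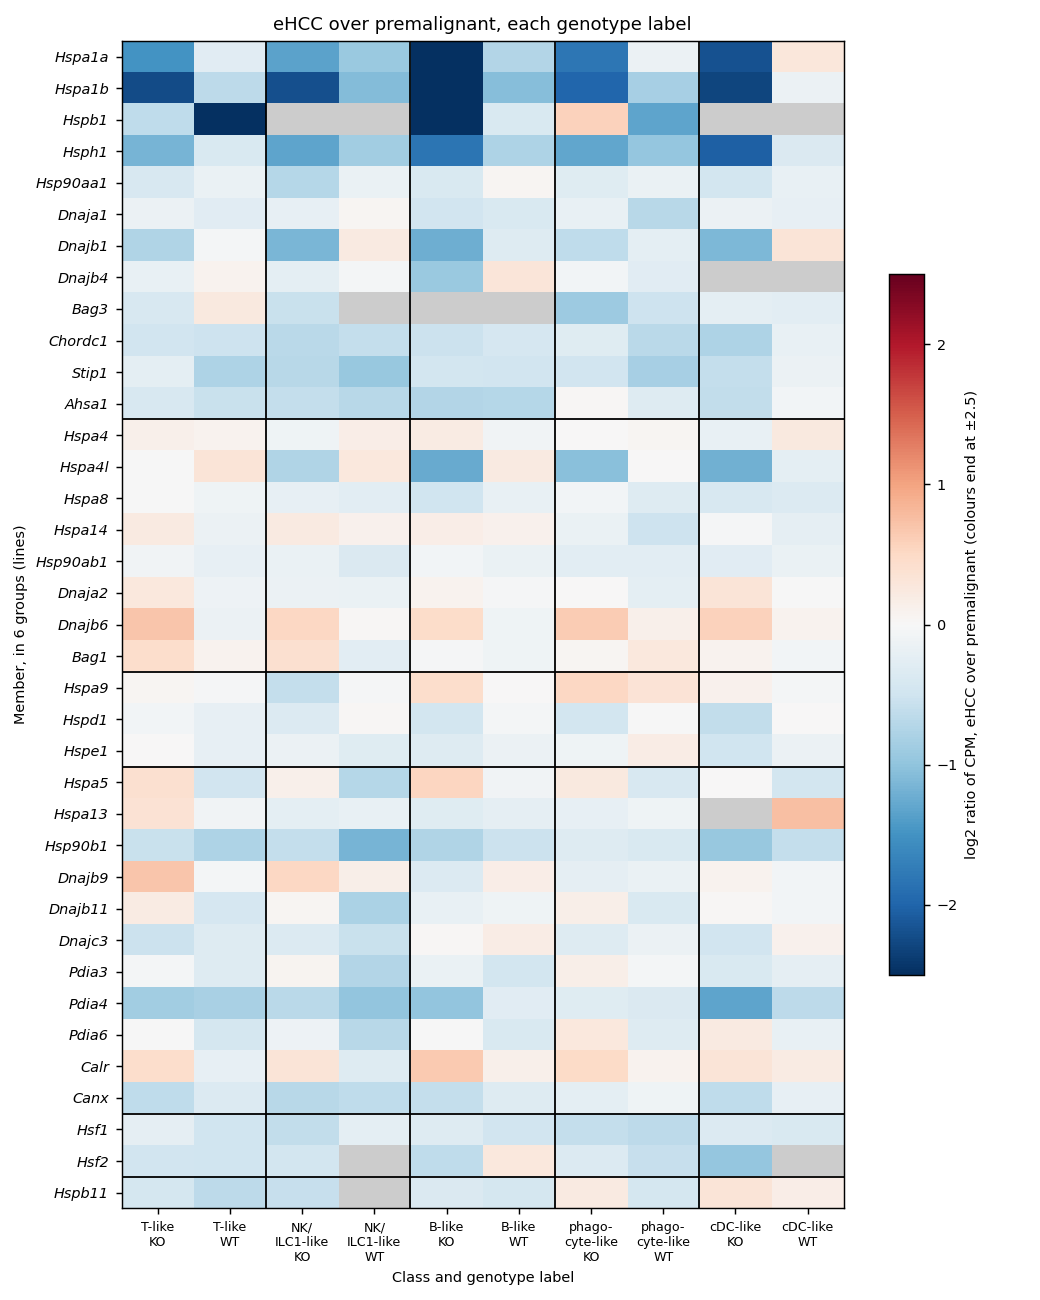
Log2 CPM ratios of eHCC over premalignant liver for the 37 genes (rows) in 5 cell classes, with KO and WT columns beside each other; the colour scale ends at 2.5 in either direction and grey marks too few UMIs. Hspa1b in B-like cells, at -4.47 under the KO label, lies beyond the end of the scale.

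Among the ER members Hspa5 alone went in opposite directions under the KO and WT labels in every class compared. It was higher in eHCC than in premalignant liver in 5 of 5 classes under the KO label and lower in 6 of 6 classes under the WT label, but passed 1.5-fold in 0 classes under the KO label (log2 ratios 0.02 to 0.54) and in 1 under the WT label, the NK/ILC1-like one (-0.72). Dnajb11 came near this pattern. It lay above 0 in 4 of 5 classes under the KO label (-0.19 to 0.20) and in 0 of 6 under the WT label (-0.79 to -0.06). Calr was also higher in 5 of 5 classes under the KO label (0.31 to 0.65), but under the WT label it lay above 0 in 3 of 6. In T-like cells Hspa5 had 650 CPM in KO eHCC and 494 CPM in KO premalignant, and 292 CPM in WT eHCC and 405 CPM in WT premalignant. Under the KO label Dnajb9 (0.69) and Dnajb6 (0.69) passed upward in T-like cells, Dnajb6 (0.64) in phagocyte-like cells and Calr (0.65) in B-like cells. Hsp90b1, the folding factor of Toll-like receptors and integrins, was lower in eHCC under both labels. In vascular endothelium-like cells of the WT label Hsp90b1 had 443 CPM in eHCC and 1070 CPM in premalignant liver (-1.27, -1.37 to -1.18), and in T-like cells of that label 227 and 390 CPM (-0.78). The vascular endothelium-like cells came mostly from different clusters in eHCC and in premalignant liver, as given above, and the part of this was not tested. Under the KO label Hsp90b1 passed in NK/ILC1-like (-0.60), B-like (-0.74) and cDC-like cells (-0.94). Pdia4 was lower past the line under the KO label in T-like (-0.87), NK/ILC1-like (-0.68), B-like (-0.99) and cDC-like cells (-1.32), and under the WT label in T-like (-0.81), NK/ILC1-like (-0.98), cDC-like (-0.66) and vascular endothelium-like cells (-0.71). The ER median lay below 0 in each of these stage comparisons; once the median of all genes is set to 0, those of T-like, NK/ILC1-like and B-like cells under the KO label and of phagocyte-like cells under the WT label lie above it. Immediate-early genes moved in the same direction as the HSP70 pair under the KO label and in the opposite direction under the WT label, except in cDC-like cells, where both lay above 0. Their stage medians were -0.53, -0.74, -1.09, -1.02 and -0.82 in T-like, NK/ILC1-like, B-like, phagocyte-like and cDC-like cells under the KO label, and 0.25, 0.08, 0.35, 0.26 and 0.19 in those classes under the WT label. Their part in the stage difference was not tested.

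The spread over cells shows how the levels were distributed. Each cell was thinned to 1000 UMIs, and the UMIs of the 12 inducible genes were summed. T-like cells had a median of 2 such UMIs (10th to 90th percentile 0 to 6) in KO eHCC, 2 (0 to 7) in WT eHCC, 4 (1 to 12) in KO premalignant and 3 (1 to 10) in WT premalignant liver. B-like cells had 2 (0 to 4) in KO eHCC, 2 (0 to 5) in WT eHCC, 4 (1 to 11) in KO premalignant and 2 (0 to 7) in WT premalignant liver. The whole distribution of B-like cells thus lay higher in KO than in WT premalignant liver, and not a few cells alone. LSEC-like cells had 2 (0 to 5) in both KO and WT premalignant liver. Inducible UMIs were more concentrated in KO eHCC: the top 1% of T-like cells held 12.5% of them there, against 6.06% in WT eHCC, 4.75% in KO premalignant and 5.41% in WT premalignant liver. Without thinning, the T-like medians per 1000 UMIs of a cell were 2.16 in KO eHCC, 2.40 in WT eHCC, 4.26 in KO premalignant and 2.88 in WT premalignant liver. For the ER genes the medians were 2 in KO eHCC, 1 in WT eHCC and 2 in both premalignant libraries in T-like cells, and 4 in KO and 5 in WT LSEC-like cells of premalignant liver.

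**Figure D5:**
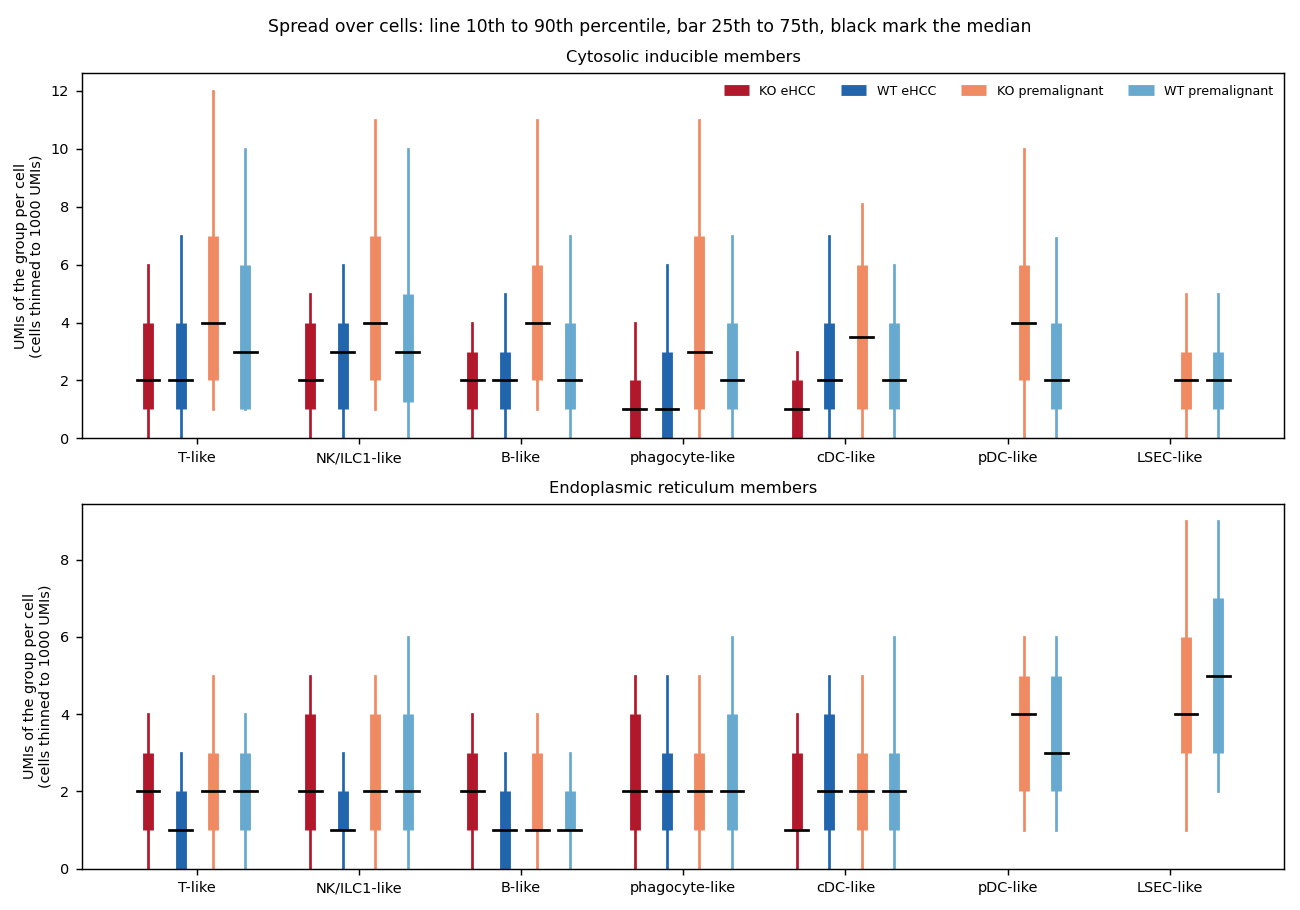
UMIs per cell of the inducible and the ER chaperones after thinning each cell to 1000 UMIs, by class and library; the thin line spans the 10th to 90th percentile, the thick bar the 25th to 75th, and the black mark is the median. The B-like median of inducible UMIs is 4 in KO premalignant liver and 2 in each of the other 3 libraries.

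Members of one compartment did not always vary together. Over 32 combinations of class and library, which share libraries and depth, Pearson's r of log2(CPM + 1) had a median of 0.78 over the 55 pairs of ER genes (0.39 to 0.94) and 0.79 over the 3 mitochondrial pairs. Over the 66 pairs of inducible genes the median was 0.33 and the range -0.54 to 0.91, and over the 28 constitutive pairs the median was 0.11. Against the summed inducible level, which contains the members themselves, Hsph1 had 0.89, Hspa1b 0.86 and Hspb1 -0.01. Outside the 37, the genes whose pattern was most like that sum over the 32 points were Atp8b2 (0.85), Scamp3 (0.84), Eml3 (0.84), Ankrd10 (0.84), Ppp6r1 (0.83), Ubtf (0.82), Trim26 (0.81), Taf1b (0.81), Dhx15 (0.81) and Fam208b (0.80).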

How the data were processed

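Per the file headers, the authors deposited raw UMI counts per gene and barcode as 10x matrices (software version 3.0.1); per the submitters' processing notes, bcl2fastq 2.20.0 and Cell Ranger were used and the builds named are mm10 and GRCh38, the role of each not being stated. The counts were used as deposited.

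Cells were kept with 500 UMIs or more, 300 genes or more and no more than 25% mitochondrial UMIs. Doublets were removed with scrublet (581 in KO eHCC, 233 in WT eHCC, 701 in KO premalignant, 902 in WT premalignant); in KO eHCC, where the caller did not separate them, the highest 0.8% per 1000 cells were taken. The 4 libraries were clustered together in scanpy 1.11.5 (Python 3.11.15; 2000 variable genes without chaperone and immediate-early genes, 40 components, 15 neighbours, Leiden resolution 1), giving 40 clusters. A cluster took a marker list's name when at least 3 markers were detected in 10% of its cells, the list's score was at least 0.8 and the next list lay at least 0.4 lower; this naming rule was set after the data were seen. UMIs were summed per class and library, with exact Poisson intervals for CPM and exact conditional binomial intervals for ratios (95%, counting error only). The ratio script was checked on simulated counts.

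Members and gene lists were chosen with earlier results of these data known. The text names members past 1.5-fold with 50 or more UMIs in the pair and an interval that leaves out 0, at most 8 per direction, and at most 3 genes of each other list. Sequences and positions are from RefSeq, GRCm38.p6.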

Additional observations from a re-analysis of the deposited data

Results flagged for a closer look

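Several KO over WT ratios passed 1.5-fold in opposite directions at the 2 stages. With 1 library per group the difference between stages was not tested, and the values are given as log2 ratios, eHCC first. Hspa1b in B-like cells had -2.35 in eHCC and 1.06 in premalignant liver, and Hspa1a there had -1.84 and 1.00. Hspa1a in phagocyte-like cells had -0.71 in eHCC and 0.96 in premalignant liver. In cDC-like cells Hspa1a had -1.74 and 0.72, Hspa1b had -1.41 and 0.73, and Hsph1 had -0.64 and 1.03. With cells thinned to 1000 UMIs the pair of Hspa1b was -0.62 and 0.23. The eHCC value of Hsph1 lay within 1.5-fold with each cell weighted equally, as given above. Dnajb1 in NK/ILC1-like cells had -0.77 in eHCC and 0.61 in premalignant liver. With thinned cells its premalignant value lay within 1.5-fold. Hspb1 in T-like cells went the other way, with 1.11 in eHCC and -0.77 in premalignant liver, from 34 to 101 UMIs per library.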

How the results depend on the processing

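No paired analysis was possible because each group had 1 library, and none could be left out. Of 1825 values of named members under the alternatives, 1822 kept their direction and 1638 stayed past 1.5-fold; calls stayed for 102 of 125 with thinned cells, 118 of 168 with the median of all genes set to 0 and 90 of 122 with doublets kept. These do not cover KO eHCC B-like cells in every setting. With stress genes allowed in the clustering, B-like cluster 0 held 7 KO eHCC cells, and 514 lay in an unnamed cluster. With doublets kept, cluster 0 held 13, and 552 lay in an unnamed cluster. The class name was thus not stable, and its KO eHCC values were not compared under either of these settings. Of 1091 group medians 994 kept their direction and 175 moved, with 70 of 96 keeping direction once the median of all genes was set to 0. Reversed was Dnaja1 in phagocyte-like cells: -0.017 in clusters 21 and 23 alone (KO over WT eHCC, 0.59 in all) and 0.020 in cluster 23 alone (eHCC over premalignant, WT, -0.69 in all). Of 301 counts of members past the line in either direction, 52 moved by over 1.5 times; the cause was not tested unless fewer genes or cells or a stricter line made it so. With a fold of 2, premalignant KO over WT counts were 1 in T-like (5 at 1.5-fold), 1 in NK/ILC1-like (4), 3 in B-like (9), 0 in LSEC-like (1), 0 in phagocyte-like (7), 2 in cDC-like (7), 1 in pDC-like (6) and 2 in the hepatocyte RNA cluster (10). In eHCC they were 3 in T-like (8), 0 in NK/ILC1-like (6), 3 in B-like (8), 0 in phagocyte-like (4) and 2 in cDC-like cells (6). Over stage under KO they were 3 in T-like (9), 4 in NK/ILC1-like (14), 6 in B-like (13), 4 in phagocyte-like (8) and 6 in cDC-like cells (13). Over stage under WT they were 1 in T-like (6), 2 in NK/ILC1-like (13), 1 in B-like (4), 3 in vascular endothelium-like (6), 1 in phagocyte-like (7) and 0 in cDC-like cells (3). Thinned to 1000 UMIs, premalignant counts were 3 in T-like, 0 in LSEC-like, 2 in cDC-like and 3 in pDC-like cells, and the KO stage count in cDC-like cells 5. With the median of all genes set to 0, the NK/ILC1-like counts were 2 in premalignant liver, 9 over stage under KO and 6 under WT, and over stage under WT 1 in B-like and 4 in phagocyte-like cells. A minimum of 200 UMIs gave 2 in NK/ILC1-like cells and 6 in the hepatocyte RNA cluster of premalignant liver, and in cDC-like cells 3 in eHCC and 8 over stage under KO. With doublets kept, the hepatocyte RNA cluster gave 6, cDC-like cells, then the wider set described above, 8 over stage under KO and B-like cells 10 over stage under WT. Stress genes allowed in the clustering gave 2 in LSEC-like cells. Each library clustered on its own gave 0 in LSEC-like cells and 9 in eHCC phagocyte-like cells, and totals without mitochondrial, haemoglobin and hepatocyte genes gave 2 in eHCC phagocyte-like cells. Each cell weighted equally gave 7 in cDC-like cells over stage under WT. Single clusters of premalignant liver, added after the data were seen, gave 3 in T-like clusters 5 and 19, 0, 2 and 3 in LSEC-like clusters 9, 10 and 11, and 3 in phagocyte-like cluster 23. Counts with few UMIs, such as Hspb1 in lymphocyte-like cells, are limited by depth.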

Other observations

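Fkbp5 separated the WT eHCC library from the other 3 in further classes. It had 10.6 CPM in KO eHCC, 68.5 in WT eHCC, 11.5 in KO premalignant and 9.66 in WT premalignant B-like cells. In cDC-like cells it had 8.22 CPM in KO eHCC, 75 in WT eHCC, 10.5 in KO premalignant and 11.1 in WT premalignant. NK/ILC1-like cells had 28.3 CPM in KO eHCC and 109 in WT eHCC, beside 56.3 in KO premalignant and 55.5 in WT premalignant. Vascular endothelium-like cells, mostly from different clusters at each stage, had 177 CPM in WT eHCC and 25.7 in WT premalignant liver. The source of this difference was not tested.

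The classes found in number in 1 eHCC library alone had unlike chaperone profiles. Mast/basophil-like cells of KO eHCC had 3260 CPM of inducible chaperones, of which Dnaja1 gave 1563 CPM, and 2603 CPM of ER chaperones. Erythroid-like cells of the same library had 1202 CPM of inducible and 943 CPM of ER chaperones.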
